A study of Mus musculus with 14 samples.

Results

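The genes described here copy the genome in S phase. They are 46 genes listed by symbol for their known roles in DNA replication and S phase, a rule that uses no measured value, and all 46 were found among the 46904 genes of the expression table. By role, 13 license origins and form the helicase, 12 work at the replication fork, 5 supply nucleotides, 4 copy chromatin, 6 are E2F factors or E cyclins, and 6 act in repair.

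The study compared wild-type mice (*Cort*+/+) with mice that lack the neuropeptide gene cortistatin in every cell (*Cort*-/-), both on a C57BL/6J background and 12 weeks of age. The middle cerebral artery was closed for 20 min with a filament (MCAO, a mild model of ischemic stroke) and then reopened, and the hemispheres were separated 48 h later. Polyadenylated RNA of whole hemispheres was sequenced from the healthy contralateral side (CL) and the ischemic side (MCAO), which gave 3 libraries each for *Cort*+/+ CL, *Cort*+/+ MCAO (numbered 2, 3 and 4) and *Cort*-/- CL, and 5 for *Cort*-/- MCAO. The protocol names 5 independent biological replicates for MCAO, so libraries of *Cort*+/+ MCAO with the numbers 1 and 5 were not analysed here, and every *Cort*+/+ MCAO value rests on 3 libraries. It does not say whether a CL and an MCAO library came from 1 animal. CL hemispheres, labelled with no treatment, were the other side of operated brains, so all 4 groups share surgery, anaesthesia and analgesia, and no sham-operated group was analysed here.

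Replication is prepared in G1 phase, when the origin recognition complex, CDC6 and CDT1 load the MCM2 to MCM7 hexamer onto DNA. In S phase CDC45 and the GINS complex turn the hexamer into an active helicase, polymerases and the sliding clamp PCNA copy both strands, ribonucleotide reductase, thymidylate synthase and thymidine kinase feed the deoxynucleotide pools, and chromatin is rebuilt behind the fork. Many of these genes are transcribed by E2F factors once the retinoblastoma proteins release them. The adult brain is mostly postmitotic, and after stroke microglia, astrocytes, vascular cells and infiltrating leukocytes are known to divide.

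Depth and labels were checked first. Between 25991113 and 43034552 reads per library fell on genes, as recovered from the deposited RPKM values (read counts divided by the length of the gene and by a library size). The library size in the RPKM values was 0.954 to 0.995 times the reads on genes in CL libraries. In MCAO libraries it was 0.992 to 1.04 times those reads. The values thus carry a scaling beyond depth, which lowers MCAO levels somewhat relative to CL levels. *Cort* stood at 2.61 to 5.68 RPKM in the 6 *Cort*+/+ libraries and at 0.136 RPKM or less in the 8 *Cort*-/- libraries, in accord with the genotype labels. Markers of dividing cells were present at low levels, since the summed RPKM of 8 mitotic genes was 1.15 to 2.56 in CL and 4.30 to 13.8 in MCAO libraries. Because whole hemispheres were sequenced, more cells that express a gene and more RNA of it per cell cannot be told apart in any value below.

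In the ischemic hemisphere, 16 of the 46 genes were higher and 0 were lower when both genotypes were averaged (limma, adjusted p under 0.05 over all 46102 genes tested). They are the helicase and licensing genes *Cdt1*, *Mcm2*, *Mcm3*, *Mcm5*, *Mcm6*, *Mcm7* and *Gins2*, the clamp gene *Pcna*, the nucleotide genes *Rrm1*, *Rrm2*, *Tyms* and *Tk1*, the chromatin genes *Chaf1b* and *Uhrf1*, the repressor *E2f8* and the repair gene *Brca1*. Their changes ran from 0.35 (*Mcm7*) to 2.12 (*Tk1*) on the log2(RPKM + 0.1) scale, on which a change is MCAO minus CL. The share of 34.8% of the members stood beside 2.52% of all genes tested that were higher in this comparison and 0.902% that were lower. These shares are 1163 genes higher and 416 lower, which became 1232 and 198 after rescaling to TPM, which gives every library the same total, while the count of 16 members stayed at 16. The count of members was 11 to 22 in 14 fits that each left out 1 library, with 22 without *Cort*+/+ MCAO 4 or *Cort*-/- MCAO 3. With limma voom on the recovered reads it was 26, which held all 16 and added *Cdc6*, *Mcm4*, *Mcm10*, *Cdc45*, *Gins1*, *Pola1*, *Pole*, *Lig1*, *Chaf1a* and *E2f2*. Voom called 1831 of all 46102 genes higher. It scaled the reads by their total alone, and its median change over all genes was 0.042. Its change was larger than that of the main fit for all 46 members. With a filter at a mean of 0.5 RPKM, 19 of the 35 members kept were higher, beside 1348 of the 17476 genes kept. The median change over the 46 members was 0.40, whereas that over all genes was 0.0001.

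Within each genotype fewer genes passed the test than in the mean of both. In *Cort*-/- mice 8 of 46 members were higher (17.4%, beside 1.34% of all genes higher and 0.382% lower), namely *Mcm6*, *Rrm1*, *Rrm2*, *Tyms*, *Tk1*, *Chaf1b*, *Uhrf1* and *E2f8*, and all 8 were also among the 16. This count rested on single libraries, since it was 1 (*Rrm2*) without *Cort*-/- CL 1 or CL 3, 2 (*Mcm6* and *Rrm2*) without *Cort*-/- MCAO 1 or MCAO 5, 4 without *Cort*-/- CL 2 or MCAO 4, and 18 without *Cort*-/- MCAO 3, and voom called 23. In *Cort*+/+ mice 0 of 46 passed (beside 0.00868% of all genes higher and 0.00217% lower, or 4 and 1 genes), so this fit called few genes of any kind. Voom called 1 member, beside 48 of all genes higher. Of the 46, 16 had an unadjusted p under 0.05, beside 3626 of all 46102 genes (limma). The paper, with its own test on counts, reports many more genes in this comparison. The lowest adjusted p in *Cort*+/+ mice was 0.0787 (limma), for *Rrm2*. The median change was 0.33 with 41 of 46 members above 0 in *Cort*+/+ mice, and 0.46 with 42 above 0 in *Cort*-/- mice.

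The members were also described by whether libraries of the hemispheres overlapped. Every *Cort*+/+ MCAO library stood above every *Cort*+/+ CL library for 19 members (41.3%, beside 5.73% of all genes), and the same held in *Cort*-/- mice for 24 members (52.2%, beside 4.85%). With the genotypes pooled, all 8 MCAO libraries stood above all 6 CL libraries for 12 members (26.1%, beside 1.72%), which were *Cdt1*, *Mcm3*, *Mcm5*, *Mcm6*, *Gins2*, *Rrm1*, *Rrm2*, *Tyms*, *Tk1*, *Chaf1b*, *E2f8* and *Brca1*.

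**Figure D1:**
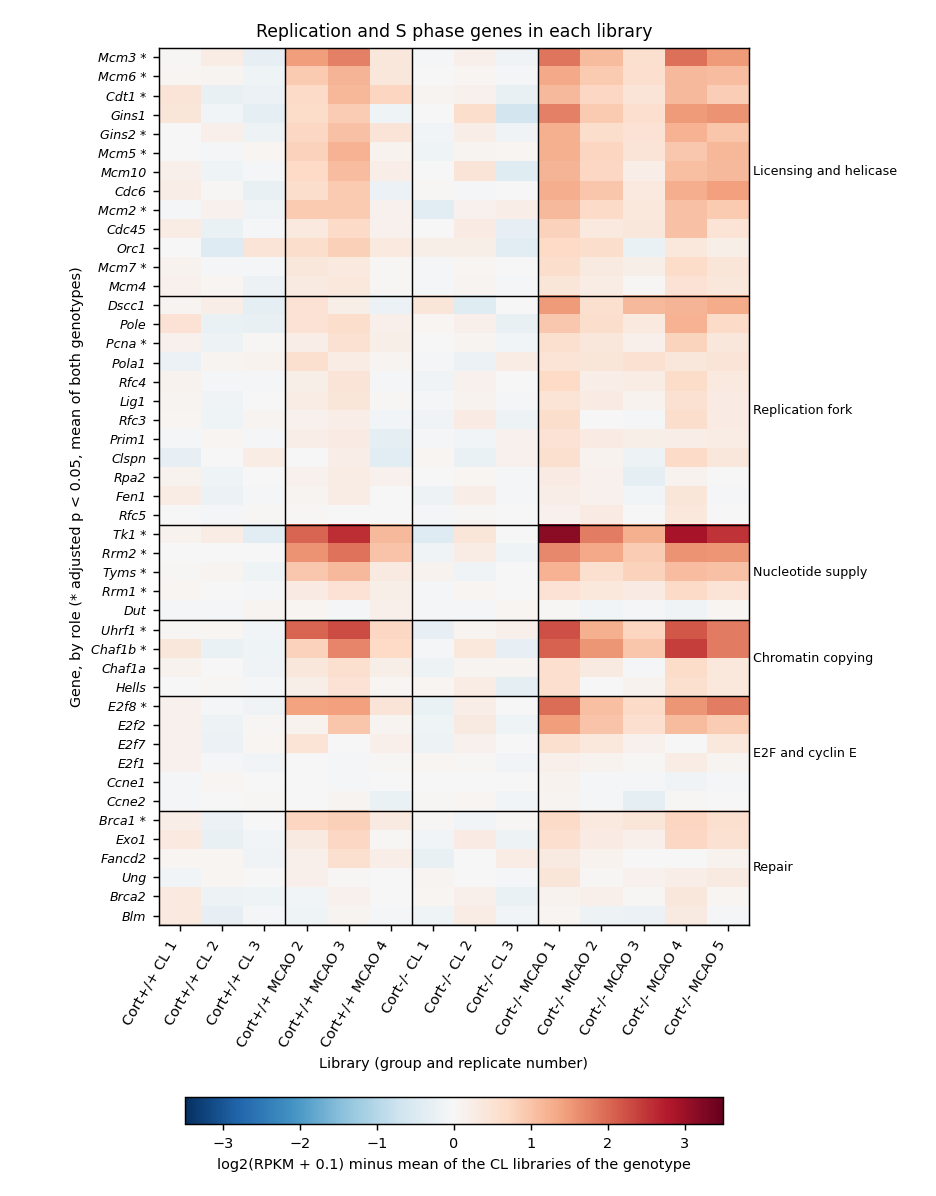
Each row is 1 of the 46 genes, grouped by role and ordered by change, and each column is 1 of the 14 libraries. Colour gives log2(RPKM + 0.1) minus the mean of the CL libraries of the same genotype, and an asterisk marks the 16 genes that passed the test in the mean of both genotypes. Red fills most MCAO columns for the licensing, nucleotide and chromatin genes, is palest in Cort+/+ MCAO 4 and Cort-/- MCAO 3, and is nearly absent for Dut, Ccne1, Ccne2 and Blm.

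Promoters of these genes are known for E2F sites, so the letters TTTGGCGC, TTTCGCGC, TTTCCCGC and TTTGCCGC were searched on both strands of RefSeq promoter windows (GRCm38.p6, 250 bases before to 50 after the start), with overlapping matches counted. A window was on hand for 38 of the 46 members, and 16 of these 38 (42.1%) held a match, beside 704 of all 27025 genes with a window (2.60%). Among members with a window, 6 of the 15 that passed the test (40.0%) and 10 of the 23 that did not (43.5%) held a match. A match was about as frequent in the genes that were called as in those that were not. Of all 30 members not called, 27 also had changes above 0, so this split cannot show whether matches go with the change. For contrast, the letters TTTGAA, the core of the CHR element of mitotic promoters, were in 5 of the 38 windows (13.2%), in 4 of 7 windows of mitotic genes (57.1%) and in 20.2% of all.

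The stretches below carry the matches of the 4 genes with the largest change among those with a match (*Uhrf1*, *Mcm3*, *Mcm6* and *Cdt1*), and of *Mcm5*, which was added after its matches were seen. Each is written from 5′ to 3′ along the gene's strand, with the searched letters, or their reverse complement, in capitals. *Uhrf1* lies at chr17:56304118-56304312 (plus strand, ending 1 base before the start), *Mcm3* at chr1:20820266-20820294 (minus strand, inside the transcribed first bases), *Mcm6* at chr1:128359706-128359825 (minus strand, ending 1 base before the start), *Cdt1* at chr8:122568036-122568064 (plus strand, inside the transcribed first bases) and *Mcm5* at chr8:75109346-75109508 (plus strand, ending 1 base before the start), all in GRCm38.p6.
Uhrf1: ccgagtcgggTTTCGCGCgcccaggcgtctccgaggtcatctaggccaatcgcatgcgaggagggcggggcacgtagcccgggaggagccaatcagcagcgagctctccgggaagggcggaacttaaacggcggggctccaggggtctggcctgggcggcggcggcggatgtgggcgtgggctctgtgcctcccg
Mcm3: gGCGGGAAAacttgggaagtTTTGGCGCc
Mcm6: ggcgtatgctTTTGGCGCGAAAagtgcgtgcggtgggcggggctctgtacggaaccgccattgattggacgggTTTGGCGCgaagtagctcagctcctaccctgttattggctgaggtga
Cdt1: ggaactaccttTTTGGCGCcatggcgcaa
Mcm5: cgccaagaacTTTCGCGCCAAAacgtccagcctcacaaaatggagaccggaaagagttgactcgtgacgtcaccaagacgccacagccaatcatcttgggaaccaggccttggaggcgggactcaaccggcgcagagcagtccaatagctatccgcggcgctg
In *Mcm6* and *Mcm5* a match on each strand overlaps the other, which gives the longer runs of capitals. A match of letters is a description of the window and was not tested as a binding site.

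Licensing and helicase genes came first in the order of replication. All 13 had positive changes in both genotypes and an unadjusted p under 0.05 in the mean, with a median of 0.77, and 7 passed the adjusted test (limma on log2 RPKM, as for every call below unless voom is named). Gene positions below are those of GRCm39 in GENCODE M39, and levels are RPKM, which are per length. The gene lengths used in the counting are not given in the sources used here, so rankings of level between genes are approximate.

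*Mcm3* (chr1:20870791-20890536), a subunit of the MCM2 to MCM7 helicase, changed most in this role. Its level was 0.882, 1.03 and 0.672 RPKM in *Cort*+/+ CL and 2.52, 3.11 and 1.16 RPKM in *Cort*+/+ MCAO libraries. It was 0.976, 1.15 and 0.917 RPKM in *Cort*-/- CL and 3.99, 2.29, 1.54, 4.08 and 3.004 RPKM in *Cort*-/- MCAO libraries. The hemispheres did not overlap, but *Cort*+/+ MCAO 4 exceeded the highest CL library by little. The change was 1.30 ± 0.25 (SE; adjusted p = 0.0113) in the mean, with 1.21 ± 0.37 for *Cort*+/+ and 1.39 ± 0.33 for *Cort*-/- mice.

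*Mcm6* (chr1:128259311-128287516), another subunit of the hexamer, had the smallest adjusted p of its role. The CL libraries held 1.80, 1.81 and 1.51 RPKM in *Cort*+/+ and 1.84, 1.94 and 1.76 RPKM in *Cort*-/- mice. The MCAO libraries held 3.29, 3.98 and 2.25 RPKM in *Cort*+/+ and 4.78, 3.56, 2.85, 4.18 and 3.99 RPKM in *Cort*-/- mice. No MCAO library reached down to the CL range, and the mean change was 0.92 ± 0.13 (SE; adjusted p = 0.0030). *Mcm6* passed in *Cort*-/- mice as well (1.01 ± 0.17, adjusted p = 0.0166), but not without *Cort*-/- CL 1 or CL 3.

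*Mcm7* (chr5:138162844-138170684) was the most abundant gene of the role. CL levels were 4.20, 3.66 and 3.63 RPKM in *Cort*+/+ and 3.61, 3.88 and 3.70 RPKM in *Cort*-/- mice. MCAO levels were 5.01, 4.89 and 3.97 RPKM in *Cort*+/+ and 5.78, 4.62, 4.29, 5.90 and 4.99 RPKM in *Cort*-/- mice. *Cort*+/+ MCAO 4 lay inside the *Cort*+/+ CL range, and the other 7 MCAO libraries lay above all CL libraries. The mean change of 0.35 ± 0.08 (SE; adjusted p = 0.0349) was called in 4 of 14 fits that each left out 1 library, where the adjusted p rose to as much as 0.0982 over all alternatives.

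The other called genes of the role were *Cdt1*, the loading factor that geminin inhibits (0.87), *Gins2* (0.82), *Mcm5* (0.81) and *Mcm2* (0.75). For *Cdt1* the CL libraries ranged from 0.594 to 1.04 RPKM and the MCAO libraries from 1.23 to 2.14 RPKM. Exons of *Gse1* on the opposite strand cover 67.3% of the exon bases of *Gins2*. The libraries were made with a stranded kit, which keeps the strand of the RNA. Whether reads were counted by strand is not given in the sources used here, so the *Gins2* values are uncertain. The 6 genes that did not pass with limma on log2 RPKM had changes of 0.86 (*Gins1*), 0.77 (*Mcm10*, a replication initiation factor), 0.75 (*Cdc6*, which loads the helicase), 0.50 (*Cdc45*), 0.47 (*Orc1*, the ATPase of the origin recognition complex) and 0.28 (*Mcm4*), with adjusted p from 0.0707 to 0.2664. Of these 6, all but *Orc1* passed with voom, at adjusted p from 0.0119 (*Mcm10*) to 0.0482 (*Cdc45*). *Orc1* was the least abundant member, with 0 to 18 reads per library, and no other member had a library at 0 reads, where 0 reads allow up to 3 at that depth.

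Within the hexamer, whose subunits assemble in equal numbers, RPKM levels were less unequal in MCAO hemispheres. *Mcm7* was the highest of the 6 genes in all 14 libraries and *Mcm3* the lowest in all 6 CL libraries. This order and the size of the ratios below depend on the gene lengths used for RPKM. The highest level divided by the lowest was 4.57 ± 0.94 (SD, n = 3) in *Cort*+/+ CL and 2.43 ± 0.87 (SD, n = 3) in *Cort*+/+ MCAO libraries. The ratio was 3.70 ± 0.33 (SD, n = 3) in *Cort*-/- CL and 2.09 ± 0.45 (SD, n = 5) in *Cort*-/- MCAO libraries. The ranges, 3.37 to 5.40 in CL and 1.66 to 3.42 in MCAO libraries, overlapped through *Cort*+/+ MCAO 4 alone. On the linear scale the mean gain over CL was 0.736 to 1.75 RPKM for the 6 genes, while their CL means spanned 0.938 to 3.78 RPKM. The small log2 changes of *Mcm4* and *Mcm7* thus belonged to the genes with the highest CL levels.

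**Figure D2:**
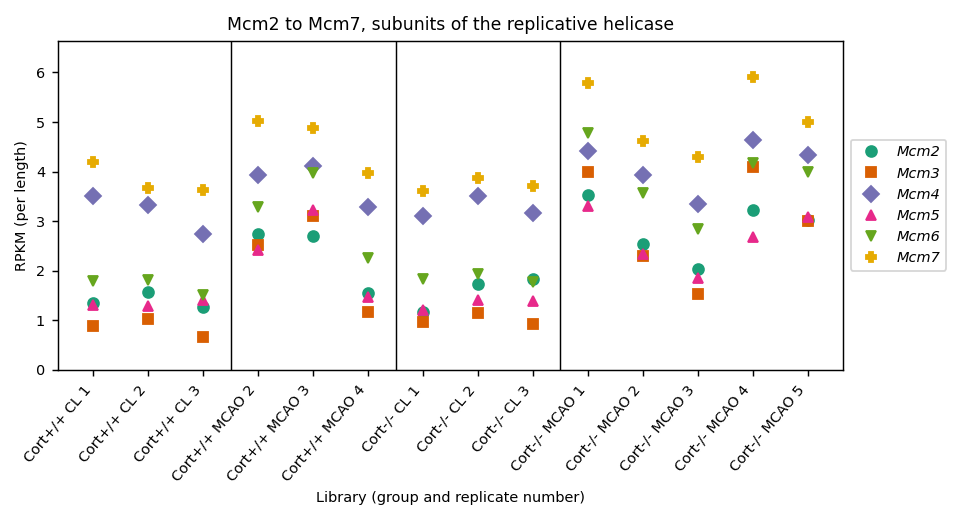
Levels in RPKM of Mcm2 to Mcm7, each with its own marker, are plotted for the 14 libraries, with lines between the 4 groups. Mcm7 is highest throughout, and the 4 genes below 2 RPKM in every CL library (Mcm2, Mcm3, Mcm5 and Mcm6) stand closer to Mcm4 in most MCAO libraries.

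At the replication fork, 1 of 12 genes passed the test, and 4 passed with voom. All 12 mean changes were above 0, with a median of 0.25, and 6 had an unadjusted p under 0.05. This role held genes with much higher CL levels, among them *Pcna*, *Fen1* and *Rpa2*.

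*Pcna* (chr2:132091082-132095234), the sliding clamp that holds polymerases on DNA, was the most abundant of the 46 genes. In *Cort*+/+ mice its level was 20.9, 16.7 and 19.6 RPKM in CL and 22.4, 27.6 and 21.8 RPKM in MCAO libraries. The *Cort*-/- libraries held 18.1, 19.7 and 17.3 RPKM in CL and 27.1, 24.3, 20.8, 31.3 and 24.4 RPKM in MCAO libraries. The hemispheres were apart within each genotype, while *Cort*+/+ CL 1 stood just above *Cort*-/- MCAO 3. The change was 0.40 ± 0.09 (SE; adjusted p = 0.0291), and it was called in 7 of 14 fits without 1 library. A long noncoding RNA on the opposite strand covers 20.8% of the exon bases, and 2 pseudogenes carry the name of *Pcna*, which may share its reads.

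*Rfc4* (chr16:22932519-22946794) and *Dscc1* (chr15:54939446-54953892), parts of complexes that load PCNA, are described because an unadjusted p fell under 0.05 in a genotype comparison or in the interaction. *Rfc4* stood at 2.02, 1.79 and 1.74 RPKM in *Cort*+/+ CL and 2.15, 2.59 and 1.78 RPKM in *Cort*+/+ MCAO libraries. It stood at 1.82, 2.19 and 1.94 RPKM in *Cort*-/- CL and 3.27, 2.36, 2.37, 3.17 and 2.53 RPKM in *Cort*-/- MCAO libraries. The hemispheres overlapped in *Cort*+/+ mice and were apart in *Cort*-/- mice. In MCAO hemispheres *Rfc4* was 0.32 ± 0.14 (SE) higher in *Cort*-/- mice at an unadjusted p of 0.0338, with an adjusted p of 1 (limma).

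*Dscc1* was close to the detection limit, with 1 to 23 reads per library. It held 0.128, 0.153 and 0.0708 RPKM in *Cort*+/+ CL and 0.202, 0.146 and 0.0854 RPKM in *Cort*+/+ MCAO libraries. The *Cort*-/- libraries held 0.115, 0.0199 and 0.0612 RPKM in CL and 0.349, 0.137, 0.250, 0.269 and 0.293 RPKM in MCAO libraries. The hemispheres were apart in *Cort*-/- mice (change 1.13 ± 0.27, adjusted p = 0.0546) and overlapped in *Cort*+/+ mice (0.16 ± 0.30). Its interaction of 0.97 ± 0.40 (SE) was the largest of the 46 and did not pass the correction (unadjusted p = 0.0317, adjusted p = 1.00, limma).

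The other fork genes did not pass with limma on log2 RPKM, with mean changes from 0.08 to 0.59, while voom called *Pola1* (adjusted p = 0.0131), *Pole* (adjusted p = 0.0181) and *Lig1* (adjusted p = 0.0237). The polymerase genes were *Pole* (0.59), the catalytic subunit of polymerase epsilon, *Pola1* (0.38), that of polymerase alpha, and *Prim1* (0.18), the primase. *Lig1*, which seals Okazaki fragments, had a change of 0.29, and *Fen1*, which trims their flaps, 0.12. *Clspn*, an adaptor of the replication checkpoint, had 0.13, the single-strand binding gene *Rpa2* 0.12, and the clamp loader genes *Rfc3* and *Rfc5* 0.20 and 0.08. Opposite-strand exons of *Tmem258* and *Wsb2* cover 59.0% of *Fen1* and 41.4% of *Rfc5*, so these values are uncertain.

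Of the 5 genes of nucleotide supply, 4 passed in the mean and in *Cort*-/- mice, and each of these 4 kept all MCAO libraries above all CL libraries. In *Cort*-/- mice the call of *Rrm2* held in all 14 fits that left out 1 library, those of *Rrm1* and *Tk1* in 9 and that of *Tyms* in 8. The last 3 were lost without *Cort*-/- CL 1, CL 3, MCAO 1 or MCAO 5, *Rrm1* and *Tyms* also without CL 2, and *Tk1* and *Tyms* also without MCAO 4.

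*Tk1* (chr11:117702770-117717042), the thymidine kinase of dividing cells, changed more than any other member. It stood at 0.230, 0.261 and 0.130 RPKM in *Cort*+/+ CL and 1.14, 1.72 and 0.561 RPKM in *Cort*+/+ MCAO libraries. It stood at 0.161, 0.376 and 0.257 RPKM in *Cort*-/- CL and 3.03, 1.12, 0.736, 2.49 and 1.94 RPKM in *Cort*-/- MCAO libraries. All 8 MCAO libraries were above all 6 CL libraries, and the mean over MCAO libraries was 6.75 times that over CL libraries. The change was 2.12 ± 0.32 (SE; adjusted p = 0.0041) in the mean and 2.31 ± 0.43 (adjusted p = 0.0213) in *Cort*-/- mice. Single libraries held as few as 7 *Tk1* reads.

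*Rrm2* (chr12:24757811-24764145) encodes the small subunit of ribonucleotide reductase, which is made in S phase. Its CL levels were 0.591, 0.580 and 0.587 RPKM in *Cort*+/+ and 0.675, 0.905 and 0.662 RPKM in *Cort*-/- mice. Its MCAO levels were 1.93, 2.47 and 1.28 RPKM in *Cort*+/+ and 2.61, 2.03, 1.47, 2.40 and 2.37 RPKM in *Cort*-/- mice. The lowest MCAO library, *Cort*+/+ MCAO 4, stood well above the highest CL library. *Rrm2* had the smallest adjusted p of the 46 in the mean (1.45 ± 0.15, adjusted p = 0.00088) and in *Cort*-/- mice (1.41 ± 0.21, adjusted p = 0.0090). An opposite-strand noncoding RNA covers 43.3% of its exon bases.

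*Rrm1* (chr7:102090890-102119709) encodes the large subunit of the same enzyme and was far more abundant. CL libraries held 4.95, 4.75 and 4.56 RPKM in *Cort*+/+ and 4.72, 5.22 and 5.06 RPKM in *Cort*-/- mice. MCAO libraries held 5.87, 6.81 and 5.46 RPKM in *Cort*+/+ and 7.13, 6.47, 6.12, 7.98 and 7.00 RPKM in *Cort*-/- mice. The hemispheres did not overlap, and the change was 0.40 ± 0.07 (SE; adjusted p = 0.0059). *Rrm1* is described because in MCAO hemispheres it was 0.19 ± 0.09 higher in *Cort*-/- mice at an unadjusted p of 0.0441, with an adjusted p of 1 (limma).

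*Tyms*, thymidylate synthase, ranged from 0.415 to 0.512 RPKM in CL and from 0.613 to 1.20 RPKM in MCAO libraries (0.87 ± 0.15, adjusted p = 0.0065). *Dut* (chr2:125089110-125100966), the dUTPase that keeps uracil out of DNA, was the most abundant gene of the role and did not pass. Its level was 7.85, 7.81 and 8.63 RPKM in *Cort*+/+ CL and 8.48, 7.74 and 9.17 RPKM in *Cort*+/+ MCAO libraries. In *Cort*-/- mice it was 8.01, 8.08 and 8.66 RPKM in CL and 8.49, 7.65, 7.82, 7.63 and 8.61 RPKM in MCAO libraries. The hemispheres covered the same range, and the change was 0.01 ± 0.05 (SE; adjusted p = 0.9557).

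**Figure D3:**
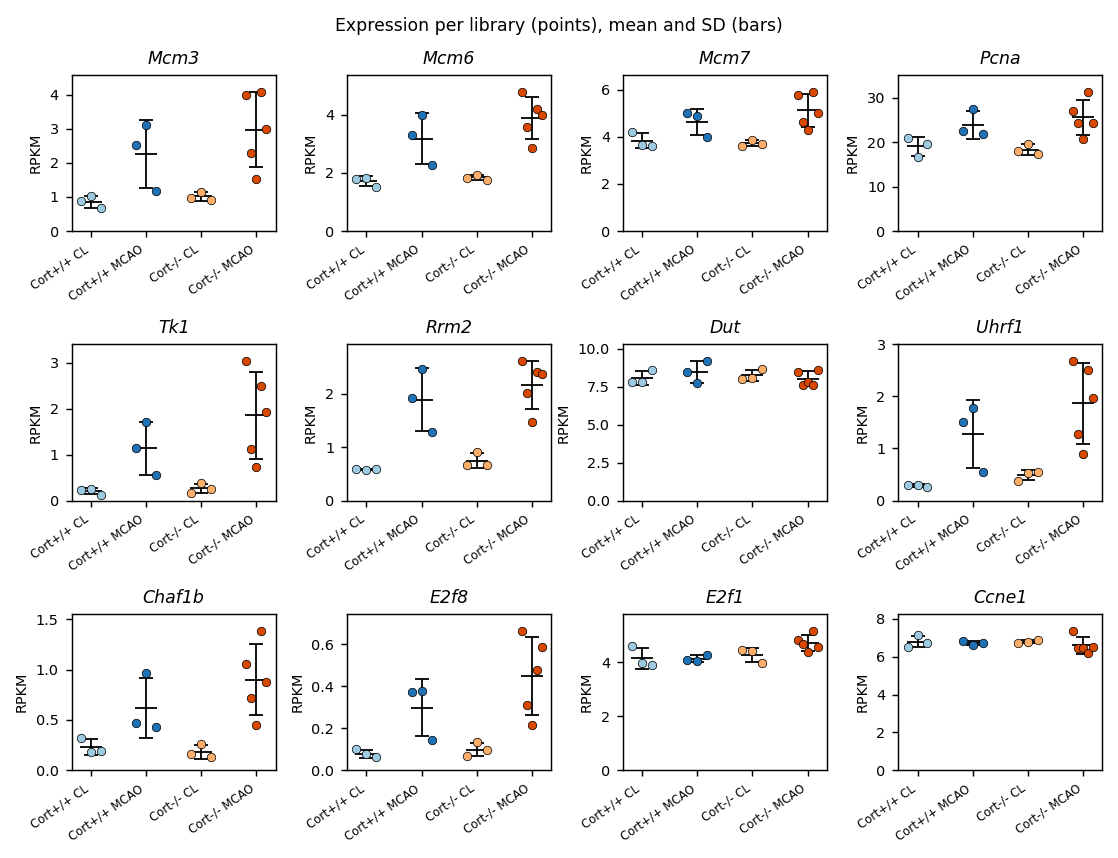
Levels in RPKM of 12 of the described genes are plotted by group, with a point for each library and bars for the mean and SD of the group (n = 3, 3, 3 and 5). All axes start at 0. Tk1, Rrm2, Mcm3, Mcm6, Uhrf1, Chaf1b and E2f8 stand higher in the MCAO groups, Mcm7 and Pcna change by a smaller share of their level, and Dut, E2f1 and Ccne1 stand at like levels in all 4 groups.

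Among the 4 genes that copy chromatin, 2 passed. *Uhrf1* (chr17:56610275-56630489) recruits the maintenance methyltransferase to newly copied DNA. Its level was 0.301, 0.308 and 0.263 RPKM in *Cort*+/+ CL and 1.50, 1.78 and 0.546 RPKM in *Cort*+/+ MCAO libraries. It was 0.380, 0.525 and 0.556 RPKM in *Cort*-/- CL and 2.67, 1.29, 0.887, 2.51 and 1.96 RPKM in *Cort*-/- MCAO libraries. The hemispheres were apart within each genotype, although *Cort*+/+ MCAO 4 fell just below *Cort*-/- CL 3. The change was 1.67 ± 0.28 (SE; adjusted p = 0.0062) in the mean and 1.65 ± 0.37 (adjusted p = 0.0428) in *Cort*-/- mice, where the call held in 3 of 14 fits without 1 library.

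*Chaf1b* (chr16:93680768-93703003) and *Chaf1a* (chr17:56347303-56379289) encode subunits of chromatin assembly factor 1, which places histones on new DNA. *Chaf1b* held 0.324, 0.177 and 0.192 RPKM in *Cort*+/+ CL and 0.469, 0.965 and 0.430 RPKM in *Cort*+/+ MCAO libraries. It held 0.163, 0.261 and 0.126 RPKM in *Cort*-/- CL and 1.06, 0.718, 0.445, 1.38 and 0.881 RPKM in *Cort*-/- MCAO libraries. No libraries of the hemispheres overlapped (1.42 ± 0.25, adjusted p = 0.0076, and 1.76 ± 0.33, adjusted p = 0.0218, in *Cort*-/- mice, where the call was lost without CL 1, CL 3, MCAO 1 or MCAO 5).

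*Chaf1a* stood higher in CL than its partner and changed less. It held 1.08, 0.987 and 0.901 RPKM in *Cort*+/+ CL and 1.33, 1.51 and 1.16 RPKM in *Cort*+/+ MCAO libraries. It held 0.896, 1.10 and 1.12 RPKM in *Cort*-/- CL and 1.59, 1.32, 0.998, 1.68 and 1.36 RPKM in *Cort*-/- MCAO libraries. *Cort*-/- MCAO 3 lay inside the CL range, and the change of 0.39 ± 0.11 (SE) did not pass (adjusted p = 0.0961), while voom called it (adjusted p = 0.0232). Exons of *Ubxn6* on the opposite strand cover 51.0% of *Chaf1a*. *Hells*, a chromatin remodeler, had a change of 0.28 (adjusted p = 0.3863).

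Among the E2F factors and E cyclins, *E2f8* passed and the other 5 genes did not, of which voom called *E2f2* (adjusted p = 0.0133). *E2f8* (chr7:48516176-48531452), an atypical E2F that represses E2F targets late in S phase, held 0.0994, 0.0745 and 0.0622 RPKM in *Cort*+/+ CL and 0.373, 0.379 and 0.142 RPKM in *Cort*+/+ MCAO libraries. It held 0.0673, 0.132 and 0.0955 RPKM in *Cort*-/- CL and 0.663, 0.308, 0.215, 0.475 and 0.585 RPKM in *Cort*-/- MCAO libraries. All MCAO libraries were above all CL libraries at levels under 1 RPKM, with 9 to 112 reads per library. The change was 1.25 ± 0.24 (SE; adjusted p = 0.0119), and 1.41 ± 0.32 (adjusted p = 0.0450) in *Cort*-/- mice, where the call held in 3 of 14 fits without 1 library.

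*E2f1* (chr2:154401326-154411812) and *E2f2* (chr4:135899585-135923368) are activating E2Fs, described because an unadjusted p fell under 0.05 between genotypes. *E2f1* stood at 4.60, 3.98 and 3.89 RPKM in *Cort*+/+ CL and 4.07, 4.05 and 4.28 RPKM in *Cort*+/+ MCAO libraries. Among *Cort*-/- mice it stood at 4.46, 4.40 and 3.97 RPKM in CL and 4.82, 4.68, 4.37, 5.16 and 4.57 RPKM in MCAO libraries. The hemispheres overlapped in both genotypes (0.07 ± 0.05, adjusted p = 0.6432). In MCAO hemispheres all 5 *Cort*-/- libraries were above the 3 *Cort*+/+ libraries, by 0.18 ± 0.07 (SE; unadjusted p = 0.0234), with an adjusted p of 1 (limma). As *E2f1* was picked by this p, the separation adds no further evidence, and the share of all genes apart in this way was not computed.

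*E2f2* was low in every group. Its level was 0.238, 0.171 and 0.215 RPKM in *Cort*+/+ CL and 0.235, 0.501 and 0.225 RPKM in *Cort*+/+ MCAO libraries. It was 0.171, 0.273 and 0.169 RPKM in *Cort*-/- CL and 0.732, 0.5002, 0.351, 0.551 and 0.462 RPKM in *Cort*-/- MCAO libraries. In *Cort*-/- mice the hemispheres were apart (1.01 ± 0.26, adjusted p = 0.0718), and in *Cort*+/+ mice 2 of 3 MCAO libraries lay in the CL range (0.39 ± 0.29). The genotypes differed by 0.59 ± 0.26 in MCAO hemispheres at an unadjusted p of 0.0381 (adjusted p of 1, limma).

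*Ccne1* (chr7:37797404-37808264), the cyclin that drives entry into S phase with CDK2, was the most abundant gene of the role. It held 6.52, 7.13 and 6.75 RPKM in *Cort*+/+ CL and 6.83, 6.63 and 6.75 RPKM in *Cort*+/+ MCAO libraries. It held 6.71, 6.80 and 6.90 RPKM in *Cort*-/- CL and 7.36, 6.47, 6.47, 6.21 and 6.52 RPKM in *Cort*-/- MCAO libraries. The CL libraries lay inside the span of the MCAO libraries, of which *Cort*-/- MCAO 1 was the highest and *Cort*-/- MCAO 4 the lowest (-0.03 ± 0.04, adjusted p = 0.8363). *Ccne2*, the related cyclin, had a change of -0.05, and *E2f7*, the partner of *E2f8*, had 0.26 at 0.0366 to 0.134 RPKM.

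Of the 6 repair genes, *Brca1* passed. *Brca1* (chr11:101379577-101442781), which acts in homologous recombination and protects stalled forks, held 0.319, 0.211 and 0.253 RPKM in *Cort*+/+ CL and 0.503, 0.537 and 0.349 RPKM in *Cort*+/+ MCAO libraries. It held 0.322, 0.288 and 0.324 RPKM in *Cort*-/- CL and 0.556, 0.417, 0.449, 0.590 and 0.508 RPKM in *Cort*-/- MCAO libraries. The hemispheres did not overlap (0.59 ± 0.14, adjusted p = 0.0304), but the call held in 4 of 14 fits without 1 library.

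*Blm* (chr7:80104481-80184899), a RecQ helicase, was the most abundant repair gene. Its level was 1.32, 0.813 and 0.992 RPKM in *Cort*+/+ CL and 0.905, 1.10 and 0.967 RPKM in *Cort*+/+ MCAO libraries. It was 0.915, 1.25 and 0.968 RPKM in *Cort*-/- CL and 1.08, 0.912, 0.880, 1.32 and 0.976 RPKM in *Cort*-/- MCAO libraries. The hemispheres overlapped over nearly their whole range (-0.03 ± 0.12, adjusted p = 0.9609). The other repair genes had changes of 0.41 (*Exo1*, an exonuclease), 0.21 (*Fancd2*, of crosslink repair), 0.15 (*Ung*, which removes uracil from DNA) and 0.09 (*Brca2*, of recombination repair), and none of these 4 passed.

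**Figure D4:**
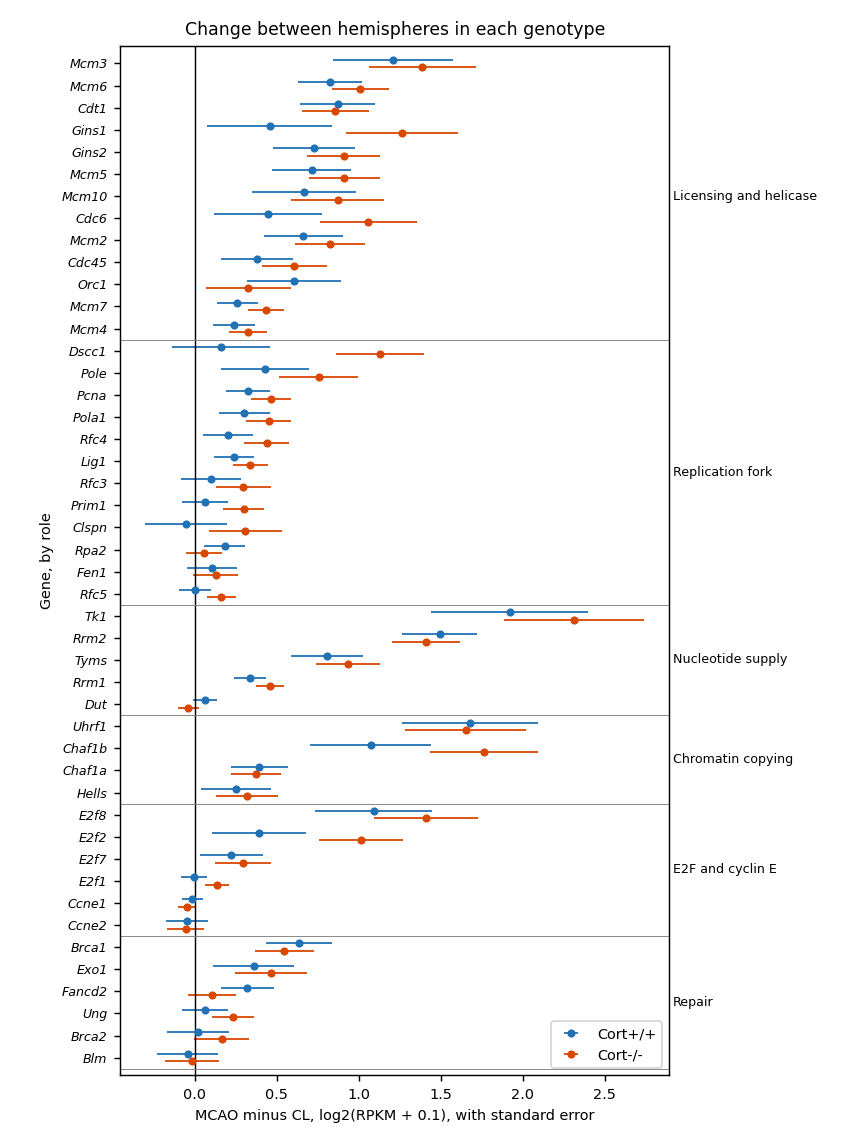
The change between hemispheres (MCAO minus CL on the log2(RPKM + 0.1) scale) is plotted with its standard error for the 46 genes, in blue for Cort+/+ and in orange for Cort-/- mice. Most points lie to the right of 0 in both genotypes, and the orange point lies further right for 35 of the 46 genes.

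Over all 46 genes, the 30 that did not pass had mean changes from -0.05 to 0.86, of which 27 were above 0 and 14 had an unadjusted p under 0.05. The 3 below 0 were *Ccne1*, *Ccne2* and *Blm*. Counting the called genes too, 30 of the 46 had an unadjusted p under 0.05 in the mean, beside 6849 of all 46102 genes (limma). Abundance and change were related across the members, as a description over 46 genes of the same libraries (Spearman's rho = -0.51 between mean CL level and mean change). Of 26 members under 1 RPKM in CL, 10 passed with a median change of 0.67 over the 26. Of 13 members from 1 to 4 RPKM, 4 passed (median 0.29), and of 7 members at 4 RPKM or more, 2 passed, *Pcna* and *Rrm1* (median 0.12). The CL level also enters the change, so the correlated values share a term. Shares of all genes at these levels were not computed, so whether the pattern is particular to the members was not tested.

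Genotypes were then compared directly, which is the question of whether cortistatin deficiency alters these genes. In CL hemispheres 0 of 46 members differed (beside 0.0152% of all genes), and 0 had an unadjusted p under 0.05 (beside 1802 of all 46102 genes, limma). The median difference, *Cort*-/- minus *Cort*+/+, was 0.03. This CL median was near 0 and not stable, at 0.10 with 33 of 46 members above 0 without *Cort*+/+ CL 1, -0.01 without *Cort*-/- CL 2, and 0.08 with 38 above 0 after rescaling to TPM. In MCAO hemispheres 0 of 46 differed (beside 0.0174%), with 4 at an unadjusted p under 0.05 beside 1762 of all 46102 genes. The interaction was called for 0 of 46 (beside 0.00217%), with 1 at an unadjusted p under 0.05 (*Dscc1*) beside 1527 of all 46102 genes. All 3 counts of called members were also 0 with limma voom on the recovered reads. A higher mean in *Cort*-/- MCAO hemispheres was found for 40 members, with a median difference of 0.19, beside -0.002 over all genes. A positive interaction was found for 35, with a median of 0.15, beside -0.006 over all genes. The share of all genes above 0 was not computed, and members of the same libraries are not independent counts.

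The size of this genotype difference depended on several choices, and the sign of the median interaction on 1 library. Without *Cort*+/+ MCAO 4, the median difference in MCAO hemispheres was 0.05 with 33 of 46 members above 0, and the median interaction was -0.005 with 22 above 0. Without *Cort*+/+ MCAO 3 these medians were instead 0.27 and 0.23. These fits compare 2 *Cort*+/+ with 5 *Cort*-/- MCAO libraries. With a pseudocount of 1 the median difference in MCAO hemispheres was 0.10 and the median interaction also 0.10, and without *Cort*+/+ CL 1 the median interaction was 0.09.

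Libraries of 1 group differed over the whole set of genes at once. *Cort*+/+ MCAO 4 was the lowest of the 8 MCAO libraries for 29 of the 46 members and 14 of the 16 called members, and *Cort*-/- MCAO 3 was the lowest *Cort*-/- MCAO library for 14 of the 16. At the other end, *Cort*-/- MCAO 1 was the highest MCAO library for 21 members and *Cort*-/- MCAO 4 for 19. *Cort*-/- MCAO 3 and *Cort*+/+ MCAO 4 also had the fewest reads on genes (25991113 and 31208140). *Cort*-/- MCAO 1 and MCAO 4 had 41808882 and 40643744. *Cort*-/- MCAO 2 had the most (43034552) and was the highest MCAO library for 0 members. What part depth had was not tested. Summed over the 46 members, CL libraries held 87.5 to 99.3 RPKM and MCAO libraries from 100.1 RPKM in *Cort*+/+ MCAO 4 and 102.8 RPKM in *Cort*-/- MCAO 3 to 144.7 RPKM in *Cort*-/- MCAO 4. Along the first principal component of all genes, which held 40.4% of the variance, *Cort*+/+ MCAO 4 was also the MCAO library nearest to the CL libraries. Without it, 22 members passed in the mean and 3 in *Cort*+/+ mice.

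Other genes of the pathway were examined as 2 lists that exclude the 46. Of 61 further replication genes, 3 were higher and 0 lower in the mean (4.92%, beside 2.52% of all genes higher), with a median change of 0.10. An unadjusted p under 0.05 (limma), in either direction, was found for 28 of the 61, beside 6849 of all 46102 genes. The 3 higher genes were *Asf1b* (1.31), a histone chaperone, *Fanci* (0.88), the partner of *Fancd2*, and *Dbf4* (0.69), which activates the kinase that fires origins. Of 28 genes that control the step from G1 to S phase, 6 were higher and 0 lower (21.4%, beside the same 2.52%), with a median of 0.07. They were *Cdkn2c* (1.16) and *Rbl1* (0.80), which restrain the cycle, *Ccna2* (1.04), the cyclin of S phase and G2, *Ccnd1* (0.71) and *Ccnd3* (0.29), the cyclins of G1, and the growth regulator *Myc* (0.68).

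The S phase genes were set beside genes of mitosis. All 8 mitotic markers were higher in the mean and in *Cort*-/- mice, and 1 of 8 passed in *Cort*+/+ mice, with a median change of 2.11 in the mean beside 0.40 for the 46 members. The lists differ in level, since the 8 markers together summed to 1.15 to 2.56 RPKM in CL libraries. The 26 members under 1 RPKM in CL had a median of 0.67. *Top2a*, the topoisomerase of dividing cells, ranged from 0.216 to 0.605 RPKM in CL and from 1.14 to 3.27 RPKM in MCAO libraries (2.54 ± 0.24, adjusted p = 0.000447). *Mki67*, which codes for the proliferation antigen Ki-67, ranged from 0.139 to 0.392 RPKM in CL and from 0.819 to 2.80 RPKM in MCAO libraries (2.57 ± 0.23, adjusted p = 0.000348). The summed mitotic markers were lowest among the MCAO libraries in *Cort*+/+ MCAO 4 (4.30 RPKM) and *Cort*-/- MCAO 3 (6.00 RPKM) and highest in *Cort*-/- MCAO 1 (13.8 RPKM) and *Cort*-/- MCAO 4 (13.8 RPKM), the same libraries that stood low and high for the replication genes. The same 4 libraries were the lowest and the highest MCAO libraries for summed microglial markers (130.9 and 148.6 RPKM against 221.3 and 204.2 RPKM) and for summed astrocyte markers (467.3 and 487.8 RPKM against 769.6 and 794.4 RPKM), in the order *Cort*+/+ MCAO 4, *Cort*-/- MCAO 3, *Cort*-/- MCAO 1 and *Cort*-/- MCAO 4. What part these cells had in the order of the libraries was not tested.

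Markers of several cell types moved with the same contrast, and their part in the result was not tested. Of 8 microglial markers 6 were higher in MCAO hemispheres, and their summed level was 99.5 to 115.1 RPKM in CL and 130.9 to 221.3 RPKM in MCAO libraries. Of 8 astrocyte markers 4 were higher (*Gfap*, *Aqp4*, *Aldh1l1* and *Vim*, 327.6 to 454.0 against 467.3 to 794.4 RPKM), and of 8 markers of infiltrating myeloid cells 2 were higher (*Plac8* and *Lyz2*, 8.01 to 20.3 against 15.2 to 62.5 RPKM). Of 7 endothelial markers 2 were higher (*Cdh5* and *Cldn5*, 45.8 to 65.1 against 60.1 to 77.7 RPKM), 1 of 8 mural and fibroblast markers (*Dcn*, 34.0 to 41.7 against 40.6 to 50.6 RPKM), and 1 of 8 markers of neural progenitors and neuroblasts (*Nes*; the list summed to 34.8 to 41.4 against 36.1 to 41.6 RPKM). The median change of the progenitor list was -0.11, with 3 of 8 markers above 0, and -0.25 in *Cort*-/- mice, with 2 of 8 above 0.

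The remaining lists held no higher gene. Markers of oligodendrocyte precursors, cells that also divide in the adult brain, gave 0 of 6 (49.7 to 56.9 RPKM in CL and 51.8 to 59.6 RPKM in MCAO libraries). Lymphocyte markers gave 0 of 8 and were near 0 in both hemispheres, at 0.573 to 1.32 RPKM in CL and 0.803 to 1.53 RPKM in MCAO libraries for the sum. Mature oligodendrocyte markers (0 of 6, 891.9 to 1147 against 881.4 to 1095 RPKM), neuronal markers (0 of 8, 2101 to 2528 against 1882 to 2179 RPKM) and markers of ependyma and choroid plexus (0 of 6, 297.3 to 448.1 against 302.4 to 501.3 RPKM) did not pass either, while all 6 markers of striatal neurons were lower (336.3 to 387.4 against 175.8 to 326.4 RPKM).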

How the data were processed

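RNA of 14 hemispheres was sequenced by the authors, who ran reanalyzerGSE 3.0.0 on GRCm39 with GENCODE M28, counted reads on genes and deposited RPKM values without pooling replicates. Gene lengths and strand settings of the counting are not given in the sources used here, and the methods say that inconsistent replicates could be left out. Whole reads were recovered from the RPKM values for 100% of 495656 values above 0.

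Genes above 0 in at least 2 libraries were fitted with limma 3.58.1 (R 4.3.3) on log2(RPKM + 0.1), as 1 model of 4 groups with a variance trend and two-sided tests, adjusted by Benjamini-Hochberg over 46102 genes. The authors' own test was on counts, so limma voom on recovered reads was an alternative. The script was tested on simulated data. The mean of both genotypes is not a comparison of the study. No library copied another of its group, since chi-square per degree of freedom was 5.82 to 26.3 over 19 pairs.

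The members, lists and tests were chosen with earlier results of these data known. Genes described by library are, in each role, the 2 called genes of largest mean change at 0.2 RPKM or more, the most abundant gene, and up to 6 members with an unadjusted p under 0.05 between genotypes or in the interaction. Of each pathway list the 5 called genes of largest change were to be named, plus *Top2a* and *Mki67*, and *Ccnd3* was added after its value was seen. The list of further replication genes leaves out 1 gene that is not reported here. Exon overlaps and positions come from GENCODE M39, and figures from Python 3.11.15. An opposite-strand gene covers more than 10% of the exon bases of 13 members. Beside those given above, these are *E2f8* (20.2%), *Dscc1* (16.6%), *Rfc4* (16.5%), *Ccne2* (15.2%), *Brca2* (12.3%), *Orc1* (12.1%) and *Cdc45* (10.6%). A pseudogene also carries the name of *Tyms*. Alternatives were other pseudocounts, filters and scalings, voom, a replicate block, the compared groups alone, and leaving out each library.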

Additional observations from a re-analysis of the deposited data

Results flagged for a closer look

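Among the 46 groups of 5 libraries examined (each member in *Cort*-/- MCAO hemispheres), *Ccne1* in *Cort*-/- MCAO 1 stood apart from its group. It held 7.36 RPKM, while the other 4 libraries held 6.21 to 6.52 RPKM, so the gap to the nearest library was 0.733 of the whole range of the group, above Dixon's 95% critical value of 0.710. Chance gives such a value in about 1 of 20 groups.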

How the results depend on the processing

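Genotype and interaction counts were 0 in every alternative run, while counts of the change between hemispheres depended on settings. In *Cort*+/+ mice 1 member passed with a pseudocount of 0.01, a mean of at least 0.5 RPKM, quantile normalization or voom, against 0. In *Cort*-/- mice 5 passed with a pseudocount of 0.5, 3 with 1, 14 of 35 with the filter at 0.5 RPKM and 23 with voom, against 8, and the median change was 0.26 with a pseudocount of 1 and 0.65 with voom. Of all genes, 898 of 17476 were higher there with that filter and 1215 of 46102 with voom, whose median change over all genes was 0.040. In the mean 26 passed with voom, which included all 16, and 19 of 35 with the filter at 0.5 RPKM, which included 13 of the 16. All genes higher in the mean numbered 1348 of 17476 with that filter and 1831 of 46102 with voom. Without 1 library the counts ranged from 0 to 3 in *Cort*+/+ mice, from 1 to 18 in *Cort*-/- mice and from 11 to 22 in the mean, and the medians from 0.22 to 0.40 and from 0.40 to 0.50. The *Cort*-/- count was 1 without *Cort*-/- CL 1 or CL 3, 2 without MCAO 1 or MCAO 5, 4 without CL 2 or MCAO 4, and 18 without MCAO 3. All genes higher in *Cort*-/- mice moved too, from 82 without CL 1 to 959 without MCAO 3, against 616. The cause was not tested. *Mcm3*, *Mcm6*, *Tk1*, *Rrm2*, *Uhrf1*, *Chaf1b* and *Rrm1* passed in all 24 alternatives and *E2f8* in all 23 that kept it, while *Pcna* passed in 17 of 24, *Mcm7* in 14 of 24 and *Brca1* in 13 of 23. Of the 10 members that voom added, *Mcm4*, *Cdc45*, *Gins1*, *Pola1*, *Lig1* and *Chaf1a* also passed with the filter at 0.5 RPKM. Changes near 0 turned sign: *Ccne1* was 0.024 and *Blm* 0.029 with voom, *Dut* ranged from -0.018 to 0.043 and *Blm* from -0.102 to 0.056 without 1 library. Of 5 same-numbered pairs of a CL and an MCAO library, *Cort*+/+ 2 deviated together (correlation 0.32) and the other 4 did not (-0.24 to 0.03), so the numbers were not taken as pairs. Each of the 6 CL libraries had a different MCAO library as its best match (0.23 to 0.40), with its own number for 1 of 6, and whether those share an animal was not tested. A replicate block left the counts at 0, 8 and 16. The mean and the interaction use all 4 groups, so the fit to the compared groups alone gave no value for them, and the filter at 0.5 RPKM removed 11 members, among them the called *Gins2*, *E2f8* and *Brca1*. Depth limits the low genes, since 9 members had a library under 20 reads.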
